A study of Mus musculus with 10 samples.

Results

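The genes described here are Sox9, Sox5 and Sox6, the Sox transcription factors of the cartilage lineage, and Acan, Hapln1, Matn1, Matn4 and Comp, which encode cartilage matrix proteins other than collagens. They were chosen by symbol, and all 8 were found among the 38720 symbols of the count table. RNA sequencing measured them in the tail bud, the growth zone at the rear end, dissected from mouse embryos at the stage labelled e12point5. Lin28a-induced embryos (n = 4, replicates 2 to 5) carried TRE-Lin28a, a doxycycline-responsive Lin28a transgene, with RLSL-rtTA, read here as a transactivator that Cre switches on, and FoxD1-Cre, and were dox-treated. No-Cre embryos (n = 3, replicates 6 to 8) carried TRE-Lin28a and RLSL-rtTA without FoxD1-Cre and were also dox-treated. For the wild-type embryos (n = 3, replicates 1 to 3) the labels name no transgene and no doxycycline. Lin28a can be switched on only in cells with a FoxD1-Cre history, and the labels do not say which tail bud cells those are. The series asks how the Lin28/let-7 pathway acts on lengthening of the caudal body axis.

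In chondrogenesis, SOX9 commits mesenchymal cells of the sclerotome and limb to cartilage and switches on cartilage matrix genes. SOX5 and SOX6, close relatives that lack a transactivation domain of their own, bind beside SOX9 and strengthen its output in chondrocytes. Acan encodes aggrecan, the large proteoglycan of cartilage, and Hapln1 the link protein that fastens aggrecan and versican to hyaluronan. Matrilins (Matn1 and Matn4) and COMP, a pentameric protein of the thrombospondin family, bridge collagen fibrils and proteoglycans. Sox9 is also expressed by notochord, neural, neural crest and gut epithelial cells, and Sox6 by erythroid and neural cells, so in a whole tail bud their reads need not come from cartilage precursors. In bulk tissue, fewer cells of a type and less RNA per cell cannot be told apart.

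On mm10, Sox9 lies on chromosome 11 from 112782224 to 112787760, Sox5 on chromosome 6 from 143828425 to 144781977 and Sox6 on chromosome 7 from 115470872 to 116038796. Acan lies on chromosome 7 from 79053483 to 79115099, Hapln1 on chromosome 13 from 89539796 to 89611652 and Matn1 on chromosome 4 from 130944385 to 130955475. Matn4 lies on chromosome 2 from 164389393 to 164405160 and Comp on chromosome 8 from 70373558 to 70382066. Sox5, Sox6 and Matn4 are on the minus strand and the other 5 on the plus strand. Antisense gene Sox5os1 shares 9.25% of the exon bases of Sox5, and Rbpjl, on the other strand, shares 2.88% of those of Matn4. Whether the counting used strand is not given in the sources used here, so reads in those stretches cannot be told apart if it did not.

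LIN28 proteins block the maturation of let-7 microRNAs, so the mature let-7a sequence (RefSeq, GRCm38.p6, chromosome 13 from 48538239 to 48538260) is shown with its seed, bases 2 to 8, in capitals, as the part that pairs with a target.
let-7a-5p: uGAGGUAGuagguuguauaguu
The 7-base match to this seed (CTACCTC) was searched on the transcript strand in the longest annotated 3′ UTR of each gene. None of the 8 genes held a match, over 3′ UTRs that ran from 167 bases (Comp) to 6046 bases (Sox6). Among 13608 tested genes with a 3′ UTR of at least 30 bases, 1470 (10.8%) held one. The absence of these letters from the annotated window says nothing on whether the gene is under let-7.

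The promoter windows of Sox5 and Hapln1 are shown because these genes were the ones lower in Lin28a-induced than in wild-type libraries. Capitals mark the SOX core motif ACAAT on either strand. The Sox5 window lies on chromosome 6 from 143947057 to 143947356, minus strand. The Hapln1 window lies on chromosome 13 from 89540386 to 89540685, plus strand. Both are at start sites inside the gene as positioned above, and are written 5′ to 3′ on the gene's strand (RefSeq, GRCm38.p6). The Hapln1 window lies near the 5′ end of its gene. On the minus strand Sox5 begins at 144781977 and ends at 143828425, so its window lies far from the 5′ end and nearer the 3′ end. Which start site the Sox5 reads came from was not tested.
Sox5: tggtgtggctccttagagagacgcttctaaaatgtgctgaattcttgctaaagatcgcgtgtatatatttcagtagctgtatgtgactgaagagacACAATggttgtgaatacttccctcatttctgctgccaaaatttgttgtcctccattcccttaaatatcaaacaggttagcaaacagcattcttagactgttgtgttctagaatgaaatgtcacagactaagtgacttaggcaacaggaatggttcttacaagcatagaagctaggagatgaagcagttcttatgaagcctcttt
Hapln1: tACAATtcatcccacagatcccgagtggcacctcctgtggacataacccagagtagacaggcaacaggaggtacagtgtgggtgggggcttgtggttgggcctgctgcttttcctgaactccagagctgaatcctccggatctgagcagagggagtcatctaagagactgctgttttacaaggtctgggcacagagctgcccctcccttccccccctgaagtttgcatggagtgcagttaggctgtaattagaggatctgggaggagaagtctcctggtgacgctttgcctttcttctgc
Each window held 1 match. At least 1 match stood in 31% of all 32851 promoter windows of 300 bases, so its presence sets neither gene apart, and a match is not evidence of binding.

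The tail buds expressed the Sox genes and the link protein gene but almost no aggrecan or matrilin-1. Levels between genes were compared as CPM per kb, that is, counts scaled to the TMM-adjusted library size (CPM) and divided by the kilobases of annotated exon. By this measure Hapln1 was first in all 3 groups, with 20.7 ± 1.27 in Lin28a-induced (SD, n = 4), 21.2 ± 0.349 in no-Cre (n = 3) and 30.8 ± 7.74 in wild-type libraries (n = 3). Sox9 followed at 4.31 ± 0.867, 4.27 ± 0.376 and 4.93 ± 0.961 CPM per kb, in the same order of groups. Sox6 stood at 2.07 ± 0.533, 2.63 ± 0.227 and 2.87 ± 0.347 CPM per kb, and Sox5 at 1.52 ± 0.119, 1.83 ± 0.212 and 1.99 ± 0.0518. The exon length of Sox5 and Sox6 sums many alternative transcripts, so their values per kb are low estimates. Matn4 stood at 0.752 ± 0.149, 0.899 ± 0.334 and 0.919 ± 0.128 CPM per kb. Comp stood at 0.345 ± 0.105, 0.316 ± 0.0666 and 0.131 ± 0.0881 CPM per kb.

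By CPM per kb the order Hapln1, Sox9, Sox6, Sox5, Matn4, Comp, Acan, Matn1 was the same in every group. Library values of neighbours in this order did not overlap, except Sox6 with Sox5 in Lin28a-induced libraries and Acan with Matn1 in Lin28a-induced and wild-type libraries. In CPM not divided by length, the means of Sox6 and Sox5 stood above that of Sox9 in every group. Sox6 was at 30.7, 39.0 and 42.5 CPM in Lin28a-induced, no-Cre and wild-type libraries. Sox5 was at 21.9, 26.3 and 28.6 CPM and Sox9 at 17.8, 17.7 and 20.4 CPM. The place of Sox9 in the order thus rests on the lengths used. Among 15422 tested genes with a length, Hapln1 per kb lay at percentile 82.4, 83 and 89.4 in Lin28a-induced, no-Cre and wild-type libraries. Sox9 lay at percentile 49, 48.9 and 50.6, and Comp at percentile 15.1, 14 and 5.5. The members thus spanned the range from well-expressed genes to genes with no more than stray reads.

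**Figure D1:**
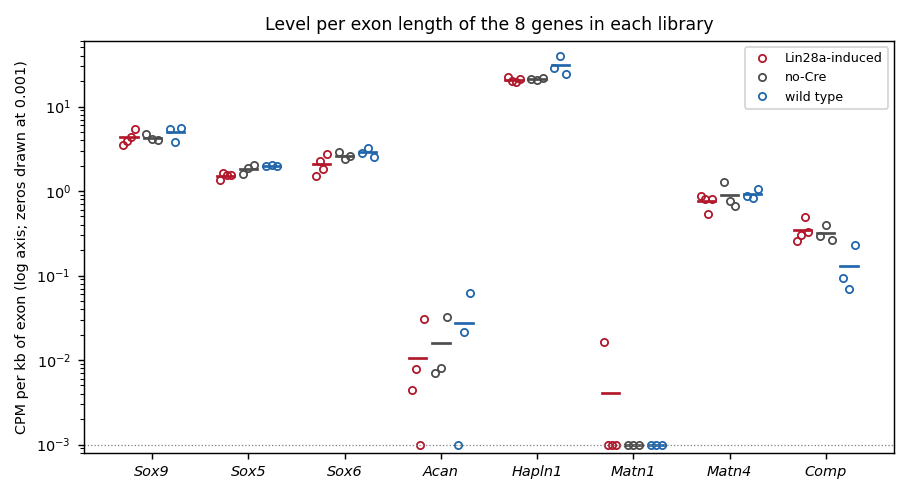
Level of each gene in each of the 10 libraries, as CPM per kb of exon on a log axis, with a bar at the group mean; zeros are drawn at 0.001 on the dotted line. Hapln1 stands highest, with group means of 20.7, 21.2 and 30.8 in Lin28a-induced, no-Cre and wild-type libraries, and Acan and Matn1 lie at or near 0.

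Aggrecan and matrilin-1 are defining products of differentiated cartilage, and both were at or near 0. Acan held 1, 2, 0 and 9 counts in Lin28a-induced replicates 2, 3, 4 and 5, and 2, 2 and 7 in no-Cre replicates 6, 7 and 8. In wild-type replicates 1, 2 and 3 it held 0, 4 and 10. These sums of 12, 11 and 14 counts correspond to 0.0882 CPM (exact Poisson 95% interval 0.0456 to 0.154) in Lin28a-induced, 0.109 (0.0543 to 0.195) in no-Cre and 0.196 (0.107 to 0.328) in wild-type libraries. The intervals, which cover counting error only, overlap, and the library values of the 3 groups overlap as well.

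Matn1 held 1 count in Lin28a-induced replicate 2 and 0 in the other 9 libraries. Over a group, 3 counts, the one-sided limit that a count of 0 allows, would be 0.0297 CPM in no-Cre and 0.0419 CPM in wild-type libraries. The exact Poisson 95% interval, as used for Acan, reached 0.041 CPM in Lin28a-induced, 0.0365 in no-Cre and 0.0515 in wild-type libraries. Acan and Matn1 did not pass the filter on low counts and have no test. Of 14 other cartilage matrix genes in the table, 10 passed that filter, and Epyc (0 counts in all 10 libraries), Ucma (11), Mia (13) and Cytl1 (41) did not. Among those that passed, Matn3, a matrilin, held 1974 counts in all and Lect1, chondromodulin, 1706. Of 8 cartilage collagens 7 passed, and Col10a1, the collagen of hypertrophic cartilage, held 30 counts in all. Col2a1, the main cartilage collagen, which SOX9 activates and which notochord cells also make, was abundant at 120 to 153 CPM in Lin28a-induced, 128 to 139 in no-Cre and 118 to 331 in wild-type libraries. Of the 8 members, then, Acan and Matn1 went against the name cartilage genes as a description of the tissue, while other genes of cartilage matrix were detected.

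Library depth and the checks on the labels were as follows. Total counts ran from 29898412 to 39517946 in Lin28a-induced, from 29300166 to 38893332 in no-Cre and from 21762668 to 25316537 in wild-type libraries. Lin28a, the induced gene, stood at 605 to 750 CPM in Lin28a-induced libraries, 2.64 to 5.03 in no-Cre and 4.45 to 6.16 in wild type. T, the Brachyury gene of the tail bud and notochord, stood at 328 to 460 CPM in Lin28a-induced and 291 to 306 in no-Cre libraries. In wild-type replicates 1, 2 and 3, T was 307, 127 and 334 CPM, and Noto, a notochord gene, 2.03, 0.243 and 5.78 CPM, so wild-type replicate 2 stood apart. Mitochondrially encoded transcripts took 0.446% to 0.690% of the counts in Lin28a-induced, 0.525% to 0.610% in no-Cre and 1.85% to 2.69% in wild-type libraries. The labels do not say that each library is a separate embryo, and the p-values cover library-to-library spread, part of which may be technical.

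Lin28a-induced and no-Cre embryos differ in the FoxD1-Cre allele and so in Lin28a induction, and this comparison asks whether the 8 genes moved with it. None of the 6 tested genes passed (edgeR's quasi-likelihood test, Benjamini-Hochberg adjusted over 16340 genes, threshold 0.05). In this comparison 2.91% of all tested genes passed in either direction, 1.76% higher and 1.15% lower, so a count of 0 among 6 is near that background. At an unadjusted p under 0.05 there was 1 of the 6, Sox5, against 16.3% of all tested genes. After adjustment DESeq2 and limma-voom also called 0, where DESeq2 gave Comp no adjusted p. In none of the 6 did the groups separate, against 23.4% of all tested genes. The median log2 fold change of the 6 was -0.15, with 4 values below 0 and 2 above.

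Sox9 measured, in CPM, 14.3, 16.1, 18.2 and 22.6 across Lin28a-induced libraries (replicates 2 to 5), 19.4, 17.0 and 16.6 across no-Cre libraries (replicates 6 to 8) and 22.3, 15.8 and 23.0 across wild-type libraries (replicates 1 to 3). The 3 groups overlap, with Lin28a-induced replicate 2 the lowest and wild-type replicate 3 the highest. Its log2 fold change over no-Cre was 0.01 ± 0.16 (SE, adjusted p = 0.986, edgeR), with a 95% interval of -0.33 to 0.36. Its sign turned without Lin28a-induced replicate 5 (-0.12) or no-Cre replicate 7 (-0.02) or 8 (-0.03), so it has no direction.

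Sox5 measured, in CPM, 19.5, 23.5, 22.5 and 22.2 across Lin28a-induced libraries (replicates 2 to 5), 23.1, 26.6 and 29.2 across no-Cre libraries (replicates 6 to 8) and 28.3, 29.5 and 28.1 across wild-type libraries (replicates 1 to 3). The Lin28a-induced libraries lay below all wild-type libraries and overlapped the no-Cre libraries through no-Cre replicate 6. Against no-Cre the log2 fold change was -0.26 ± 0.09 (adjusted p = 0.135, edgeR). Its 95% interval, not adjusted over genes, was -0.45 to -0.07. The adjusted p was 0.0601 by edgeR with only the 2 groups compared and 0.0784 by DESeq2. Without no-Cre replicate 6 the change was -0.35 (adjusted p = 0.103, edgeR), and without no-Cre replicate 8 -0.18 (adjusted p = 0.506, edgeR).

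Sox6, its partner, measured, in CPM, 22.1, 33.3, 27.1 and 40.4 across Lin28a-induced libraries (replicates 2 to 5), 42.6, 35.9 and 38.4 across no-Cre libraries (replicates 6 to 8) and 42.1, 47.9 and 37.6 across wild-type libraries (replicates 1 to 3). Lin28a-induced replicates 2, 3 and 4 lay below every no-Cre and wild-type library, and replicate 5 lay among them. Against no-Cre the log2 fold change was -0.34 ± 0.18 (adjusted p = 0.394, edgeR; 95% interval -0.74 to 0.06). It was -0.21 without Lin28a-induced replicate 2 and -0.50 without Lin28a-induced replicate 5. The part of neural or erythroid cells in it was not tested; their summed markers are given below. Sox6 varied more among Lin28a-induced libraries, with a coefficient of variation of 25.8%, than Sox5 did (7.84%). Counts of Sox5 per count of Sox6 were 0.881, 0.704, 0.833 and 0.549 in Lin28a-induced replicates 2 to 5, 0.542, 0.740 and 0.760 in no-Cre replicates 6 to 8, and 0.671, 0.616 and 0.748 in wild-type replicates 1 to 3.

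**Figure D2:**
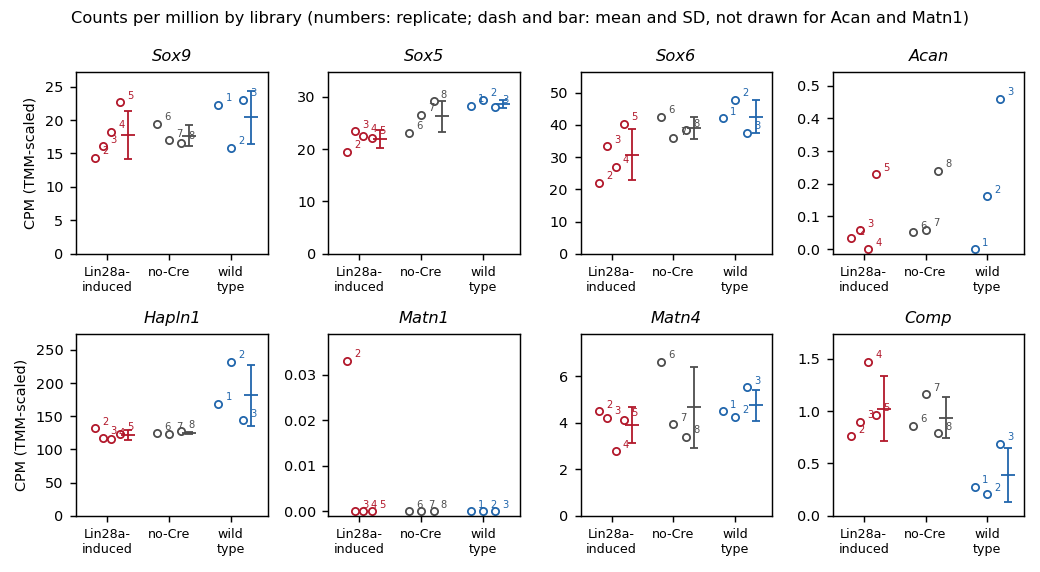
CPM of each gene by library, 1 panel per gene with its own axis from about 0; numbers are replicates, and the dash with its bar is the group mean with its SD (not drawn for Acan and Matn1). Sox5 lies lower in all Lin28a-induced than in all wild-type libraries, Hapln1 is highest in wild-type replicate 2 at 232 CPM, and Comp is lowest in wild-type libraries.

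Hapln1, the most highly expressed member, did not pass between Lin28a-induced and no-Cre libraries. It measured, in CPM, 132, 118, 115 and 124 across Lin28a-induced libraries (replicates 2 to 5), 124, 123 and 127 across no-Cre libraries (replicates 6 to 8) and 169, 232 and 144 across wild-type libraries (replicates 1 to 3). All wild-type libraries lay above all others, and wild-type replicate 2 lay farthest. The log2 fold change over no-Cre was -0.03 ± 0.13 (adjusted p = 0.945, edgeR), with a 95% interval of -0.32 to 0.25. This SE and interval draw on the spread of all 10 libraries, wild type included. The coefficient of variation was 6.14% in Lin28a-induced, 1.65% in no-Cre and 25.1% in wild-type libraries. With only the 2 groups compared the change was -0.036 ± 0.046 (adjusted p = 0.690, edgeR). Without wild-type replicate 2 it was -0.035 ± 0.056 (adjusted p = 0.780, edgeR).

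Matn4, a matrilin that is broader in its tissues than Matn1, measured, in CPM, 4.49, 4.21, 2.76 and 4.12 across Lin28a-induced libraries (replicates 2 to 5), 6.62, 3.93 and 3.40 across no-Cre libraries (replicates 6 to 8) and 4.49, 4.26 and 5.51 across wild-type libraries (replicates 1 to 3). All groups overlap, and no-Cre replicate 6 held 254 counts, the most of any library. Against no-Cre the log2 fold change was -0.26 ± 0.23 (adjusted p = 0.639, edgeR; 95% interval -0.76 to 0.23), and 0.08 without no-Cre replicate 6.

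Comp held 23, 31, 47 and 38 counts in Lin28a-induced replicates 2, 3, 4 and 5, or 0.759, 0.900, 1.47 and 0.966 CPM. It held 33, 39 and 23 counts in no-Cre replicates 6, 7 and 8, or 0.860, 1.16 and 0.789 CPM. In wild-type replicates 1, 2 and 3 it held 7, 5 and 15 counts, or 0.278, 0.203 and 0.689 CPM. Every wild-type library lay below every other library, though wild-type replicate 3 came near no-Cre replicate 8. The log2 fold change of Lin28a-induced over no-Cre was 0.13 ± 0.36 (adjusted p = 0.915, edgeR; 95% interval -0.64 to 0.89), and -0.10 without Lin28a-induced replicate 4.

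Against wild type the Lin28a-induced embryos differ in transgenes, Cre and doxycycline together. The wild-type libraries were also shallower and held more mitochondrial transcripts, as given above. The globin gene Hba-a2 stood at 90.0 to 150 CPM in Lin28a-induced, 144 to 234 in no-Cre and 0 to 0.690 in wild-type libraries. Hba-a1 stood at 177 to 292, 280 to 452 and 241 to 789 CPM in the same order. Whether the groups also differ in genetic background was not tested. Sox5 and Hapln1 were lower and Comp was higher in Lin28a-induced libraries, 3 of the 6 tested genes. Of all tested genes 49.3% passed in this comparison, 24.3% higher and 25% lower, so 3 of 6 is at the background and says nothing particular about these genes. In the same 3 genes the groups did not overlap, against 49.3% of all tested genes. The median log2 fold change of the 6 was -0.34. No-Cre and Lin28a-induced libraries are set against the same wild-type libraries, so the values below are given side by side and not as independent evidence.

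Hapln1 fell to 122 ± 7.50 CPM in Lin28a-induced libraries (SD, n = 4), against 182 ± 45.7 CPM in wild type (n = 3), a log2 fold change of -0.57 ± 0.13 (SE, adjusted p = 0.00367, edgeR). Without wild-type replicate 2 the change was -0.36 (adjusted p = 0.00031). Hapln1 passed in all 19 alternative fits of this comparison, with adjusted p up to 0.012. The no-Cre libraries, at 125 ± 2.06 CPM (n = 3), were also lower than wild type, by -0.54 ± 0.14 (adjusted p = 0.00943), or -0.32 (adjusted p = 0.00149) without wild-type replicate 2. The direct comparison of the transgenic groups, given above, did not pass.

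Sox5 fell to 21.9 ± 1.72 CPM in Lin28a-induced libraries, against 28.6 ± 0.745 CPM in wild type, a log2 fold change of -0.39 ± 0.09 (adjusted p = 0.00249, edgeR) that passed in all 19 alternative fits. No-Cre libraries stood at 26.3 ± 3.05 CPM, and their log2 fold change over wild type was -0.13 ± 0.09 (adjusted p = 0.299), or -0.04 without no-Cre replicate 6 and -0.20 without no-Cre replicate 8. The difference between these effects is the Lin28a-induced over no-Cre value of -0.26, which did not pass, so Sox5 is not shown to differ between the transgenic groups. Sox6 had the same sign in Lin28a-induced over wild type (30.7 ± 7.91 against 42.5 ± 5.15 CPM, -0.47 ± 0.18) and missed the threshold (adjusted p = 0.0541). It passed in 5 of 19 alternative fits, among them DESeq2 (adjusted p = 0.0145), limma-voom (adjusted p = 0.0485) and the fit without Lin28a-induced replicate 5 (adjusted p = 0.00372). No-Cre libraries stood at 39.0 ± 3.37 CPM of Sox6, with -0.13 ± 0.19 over wild type (adjusted p = 0.624), or -0.03 without wild-type replicate 2 and -0.20 without wild-type replicate 3.

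Comp rose to 1.02 ± 0.312 CPM in Lin28a-induced libraries, against 0.390 ± 0.261 CPM in wild type, a 2.66-fold difference (log2 1.41 ± 0.42, adjusted p = 0.0129, edgeR). It rose to 0.937 ± 0.198 CPM in no-Cre libraries over the same wild-type mean (log2 1.29 ± 0.44, adjusted p = 0.0311). The calls rest on 27 wild-type reads in all. Over wild type, Lin28a-induced libraries missed the threshold without wild-type replicate 1 (adjusted p = 0.0513), and gave 2.07 without wild-type replicate 3. No-Cre libraries missed it without no-Cre replicate 6 (adjusted p = 0.057) or 7 (adjusted p = 0.107) or wild-type replicate 1 (adjusted p = 0.0942) or 2 (adjusted p = 0.1), and gave 1.95 without wild-type replicate 3. A filter of 1 CPM in at least 3 libraries drops Comp from the test.

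Sox9 and Matn4 did not pass against wild type in either group. Sox9 gave -0.19 ± 0.16 (adjusted p = 0.344, edgeR) in Lin28a-induced and -0.20 ± 0.17 (adjusted p = 0.357) in no-Cre libraries. These ran to -0.35 and -0.36 without wild-type replicate 2, and to -0.09 and -0.11 without wild-type replicate 3. Matn4 gave -0.28 ± 0.23 (adjusted p = 0.334) and -0.02 ± 0.25 (adjusted p = 0.953), where the Lin28a-induced value was -0.15 without Lin28a-induced replicate 4 and -0.17 without wild-type replicate 3. In no-Cre over wild type, 2 of the 6 genes passed, Hapln1 lower and Comp higher, against 42.5% of all tested genes in either direction, 21% higher and 21.4% lower. Both also did not overlap between the groups, against 52% of all tested genes. The median log2 fold change of the 6 was -0.13.

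**Figure D3:**
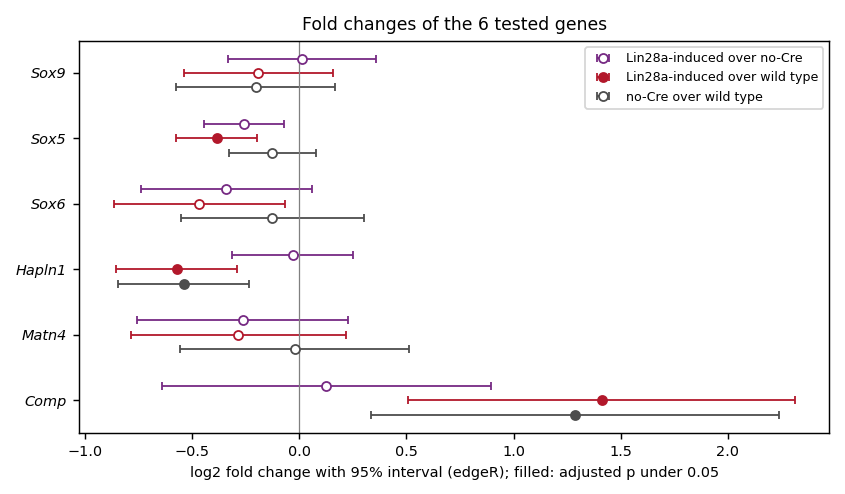
Log2 fold changes of the 6 tested genes with 95% intervals from edgeR (not adjusted over genes), for Lin28a-induced over no-Cre, Lin28a-induced over wild type and no-Cre over wild type; filled points passed an adjusted p of 0.05. No point of the first comparison is filled. Against wild type, Hapln1 is filled below 0 and Comp above 0 in both comparisons. Sox5 is filled, below 0, only in Lin28a-induced over wild type.

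Wild-type replicate 2 was at an extreme of its group for each tested member. In a group of 3 most libraries are at an extreme for any gene, so this is a description only. Replicate 2 held the lowest Sox9 (15.8 CPM), Matn4 (4.26 CPM) and Comp (0.203 CPM) of the wild-type libraries. It held the highest Sox5 (29.5 CPM), Sox6 (47.9 CPM) and Hapln1 (232 CPM). Its T, Noto and Col2a1 were also the lowest (127, 0.243 and 118 CPM). The part of notochord or tail bud cells in these values was not tested.

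To see which genes followed the members within groups, each group's mean was removed from log2 CPM and Pearson's r was taken over the 10 libraries with 13962 other named genes. The 3 highest for Sox9 were Rhobtb3 (r = 0.98), Ythdf2 (0.97) and Sec31a (0.97), for Sox5 Casp2 (0.98), Slc25a2 (0.95) and Cybrd1 (0.95), and for Sox6 Crybg3, Tbx22 and Lsm14b (0.96 each). For Hapln1 they were Ptpru (0.995), Cd302 (0.98) and Lypd6 (0.98), for Matn4 Tatdn2 (0.96), Cyp2w1 (0.94) and Ddx41 (0.93), and for Comp Col15a1 (0.98), Dctn1 (0.97) and Nrd1 (0.96). They are the highest of many values over few libraries that share depth and composition, so they are a description with no test. None of these 18 genes is a member or in the companion lists.

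Companion lists of the cartilage program were counted beside the members. Over no-Cre, 2.91% of all tested genes passed, 1.76% higher and 1.15% lower, and the counts below are to be read against these shares. Over no-Cre, the Lin28a-induced libraries had 1 fall and 6 genes that did not pass among 7 tested cartilage collagens, namely Col11a1 (-0.61 ± 0.14; 28.8 against 44.2 CPM; adjusted p = 0.0403, edgeR). Of 10 other cartilage matrix genes 1 fell, Fmod, a small proteoglycan of collagen fibrils (-0.45 ± 0.08; 21.1 against 28.7 CPM; adjusted p = 0.00818). Of 20 chondrogenic regulators 1 fell, the sclerotome factor Foxc1 (-0.38 ± 0.09; 204 against 265 CPM; adjusted p = 0.0445). Of 14 genes of chondroitin sulfate synthesis 1 rose, Impad1, a Golgi phosphatase needed for sulfation (0.24 ± 0.04; 345 against 292 CPM; adjusted p = 0.00848).

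Of 14 other Sox genes 1 fell, the neural gene Sox3 (-0.92 ± 0.18; 2.69 against 5.12 CPM; adjusted p = 0.0138). Of 9 family paralogs of the matrix members 1 rose, Thbs3, a thrombospondin related to Comp (0.37 ± 0.08; 17.3 against 13.3 CPM; adjusted p = 0.029). The list medians lay between -0.05 and 0.07, against -0.00 for all tested genes. Matn3 and Vcan stand in 2 of the 6 lists.

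**Figure D4:**
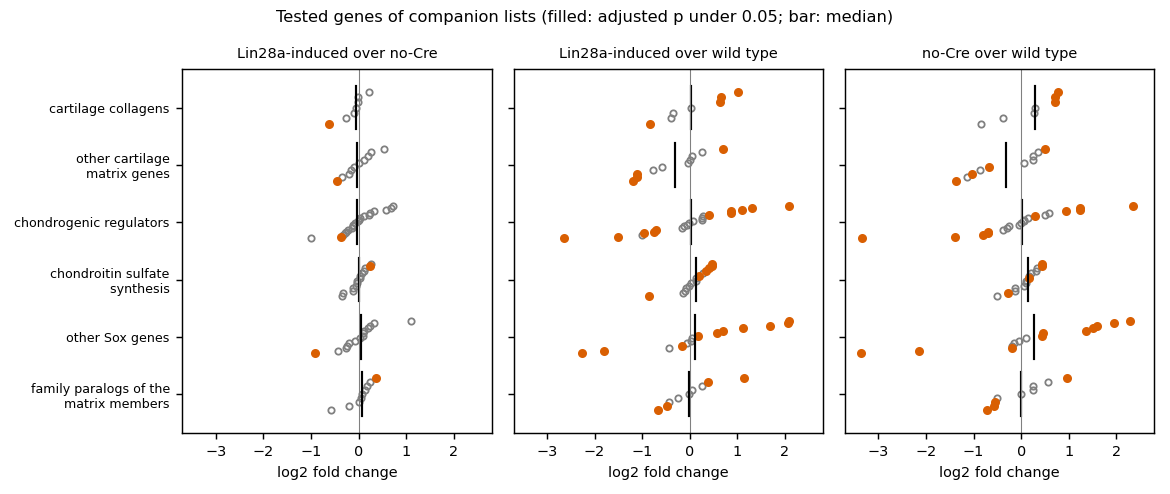
Log2 fold changes of the tested genes of 6 companion lists in the 3 comparisons; filled points passed an adjusted p of 0.05 and the vertical bar is the list median. Over no-Cre each list has 1 filled point, while against wild type genes of most lists passed in both directions.

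Against wild type these lists moved in both directions. Lin28a-induced libraries had 3 rises and 1 fall among the 7 collagens (median log2 fold change 0.02), with Col27a1 at 21.2 against 10.6 CPM (adjusted p = 5.12e-07) and Col2a1 at -0.85 ± 0.30 (adjusted p = 0.0498, edgeR). No-Cre libraries had 3 rises and no fall among them (median 0.29), with Col27a1 at 0.78 ± 0.09. Col2a1 stood there at -0.85 ± 0.33 (adjusted p = 0.0733), and over no-Cre Lin28a-induced libraries gave -0.00 ± 0.31 (adjusted p = 0.99970, edgeR), so the groups are not shown to differ in it. Among the 10 other matrix genes, 1 rose and 3 fell in each transgenic group (medians -0.31 and -0.31). Fmod was lower by -1.12 ± 0.08 in Lin28a-induced and -0.67 ± 0.08 in no-Cre libraries, while Bgn, biglycan, was higher by 0.69 ± 0.12 and 0.50 ± 0.13.

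Among 20 chondrogenic regulators, Lin28a-induced libraries had 6 rises and 5 falls and no-Cre libraries 5 rises and 5 falls (medians 0.02 and 0.02). Foxc2, a sclerotome and mesenchyme factor, was higher by 2.08 ± 0.13 in Lin28a-induced and 2.36 ± 0.14 in no-Cre libraries. Pth1r, the receptor for parathyroid hormone-related protein, was higher by 0.87 ± 0.11 and 0.94 ± 0.11. Pax1, a sclerotome factor, was lower, with 1.69 CPM in Lin28a-induced and 1.04 CPM in no-Cre libraries against 10.8 CPM in wild type (log2 fold change -2.65 ± 0.57, adjusted p = 0.00439, and -3.34 ± 0.66, adjusted p = 0.00381, edgeR). Pax9, also in this list, stood at 36.4 CPM in Lin28a-induced, 31.1 in no-Cre and 37.0 in wild-type libraries. Its log2 fold change in Lin28a-induced over wild type was -0.02 ± 0.18 (adjusted p = 0.935, edgeR). Fgfr3, a growth factor receptor of chondrocytes, gave -0.76 ± 0.11 and -0.79 ± 0.12, and Arid5a and Arid5b were also lower in both groups. Chondroitin sulfate genes had 5 rises and 1 fall among 14 in Lin28a-induced libraries and 3 rises and 1 fall in no-Cre libraries (medians 0.13 and 0.14). Other Sox genes had 7 rises and 3 falls among 14 in each group (medians 0.10 and 0.28). Family paralogs had 2 rises and 2 falls among 9 in Lin28a-induced libraries and 1 rise and 3 falls in no-Cre libraries (medians -0.02 and 0.01), with Thbs2 higher by 1.14 ± 0.20 and 0.97 ± 0.21. The median of all tested genes was -0.02 in each comparison, and 49.3% and 42.5% of them passed, so these shares are to be read against that.

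Markers of other cell types were counted in the wild-type comparisons, in which 49.3% of all tested genes passed for Lin28a-induced and 42.5% for no-Cre libraries. The counts below are to be read against those shares. Larger shares passed in the surface ectoderm, tendon and perichondrium, notochord and floor plate, and hindgut lists, which are short. Surface ectoderm genes, all 7 tested lower in both transgenic groups, summed to 175 to 202 CPM in Lin28a-induced, 186 to 207 in no-Cre and 585 to 771 in wild-type libraries. Tendon and perichondrium genes, 5 of 7 lower in both groups, summed to 32.7 to 67.3, 42.9 to 60.8 and 127 to 163 CPM in the same order. Neural crest genes summed to 134 to 172, 146 to 151 and 292 to 367 CPM, with 2 of 7 higher and 2 lower in Lin28a-induced and 2 of 7 lower in no-Cre libraries. Sox10, the defining gene of that lineage, held 30 counts in all 10 libraries. Notochord and floor plate genes, 3 of 9 higher and 4 lower in each group, summed to 455 to 587, 422 to 457 and 353 to 561 CPM. Hindgut genes summed to 275 to 314, 274 to 313 and 405 to 488 CPM, with 6 of 9 higher and 3 lower in Lin28a-induced and 5 higher and 3 lower in no-Cre libraries. The part of these cells in the changes of Hapln1, Sox5 and Comp was not tested.

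Between Lin28a-induced and no-Cre libraries, no tested gene of those 5 marker lists passed. Neural tube genes had 1 fall among 8, Sox3, with 7 of the 8 values below 0 and a median log2 fold change of -0.54, and summed to 127 to 164 CPM in Lin28a-induced, 174 to 188 in no-Cre and 164 to 189 in wild-type libraries. Against wild type 1 of the 8 was higher and 3 lower in Lin28a-induced libraries, and 2 were higher in no-Cre libraries. Of 10 erythroid genes none passed over no-Cre, with all 10 values below 0, and the sums were 3508 to 5752 CPM in Lin28a-induced, 5346 to 8899 in no-Cre and 2720 to 8002 in wild-type libraries. Against wild type, 4 of them were higher and 1 lower in each transgenic group. Of 5 tested muscle genes none passed over no-Cre, and the sums were 33.2 to 39.0, 32.6 to 37.97 and 26.7 to 35.1 CPM. Against wild type 2 rose and 1 fell in Lin28a-induced libraries, and 1 rose and 1 fell in no-Cre libraries. Myod1 and Myog held 7 and 2 counts in all.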

How the data were processed

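Total RNA was sequenced with NEB Ultra Directional libraries as single 75-base reads on a NextSeq 500, per the labels' protocols. The deposited table holds the authors' raw counts for each symbol in each library. STAR 2.3.1z4, featureCounts, DESeq2 and mm10 are named in the submitters' processing notes. The annotation is not given in the sources used here, nor is the handling of strand or multiple alignments. Counts were filtered with filterByExpr, scaled by TMM and fitted with edgeR 4.0.16 (robust quasi-likelihood, R 4.3.3), 1 coefficient per group over all 10 libraries; 16340 genes were tested and Benjamini-Hochberg adjusted, threshold 0.05. SEs were derived from the F statistic of each contrast (size of the log2 change over root F). CPM uses TMM-scaled library sizes. DESeq2 1.42.0 and limma 3.58.1 served as alternatives. Lengths, positions and 3′ UTRs come from GENCODE M21 (GRCm38, the build of mm10), promoters and microRNAs from RefSeq; 6 of the 8 genes had a promoter entry. At most 0.902% of a member's 32-base words (Sox9) occur in another gene's transcripts. All 8 genes were named by rule, which also allowed up to 4 passing genes of each companion list by smallest p. Over no-Cre every passing gene of those lists is named. Against wild type only some of the genes that the rule allowed are named. The members and lists were chosen with earlier results of these data known. Genes named outside that rule were picked after their values were seen. They were Epyc, Ucma, Mia, Cytl1, Matn3, Lect1, Col10a1, Pax1, Pax9, Arid5a, Arid5b, T, Noto, Sox10, Scx, Tnmd, Myod1, Myog, Hba-a1 and Hba-a2. Confidence intervals cover counting error only where they are Poisson intervals. Replicate numbers 2 and 3 occur in both Lin28a-induced and wild-type groups; the labels do not say that they pair samples.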

Additional observations from a re-analysis of the deposited data

Results flagged for a closer look

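Matn1 in Lin28a-induced replicate 2, at 0.033 CPM, lay apart from the other 3 libraries of its group, which held 0. The value is 1 read. Chance alone sets apart about 1 in 20 groups by this measure of the gap to the nearest library, and with whole counts of 0 and 1 the gap is always the full range.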

How the results depend on the processing

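No member passed over no-Cre in any of the 18 alternative fits (17 for Comp, of which DESeq2 gave it no adjusted p). The count of all genes there, 476, became 1791 with only the 2 groups compared, 940 with DESeq2 and 104 to 1482 with 1 library left out, highest without wild-type replicate 2. It was lower by over 1.5 times without Lin28a-induced replicate 2 (304), 3 (291), 4 (174) or 5 (209) or no-Cre replicate 6 (140), 7 (104) or 8 (106). With 1 library left out, 2 to 4 members passed in Lin28a-induced and 1 to 2 in no-Cre libraries over wild type. In no-Cre over wild type, 1 member passed with a filter of 1 CPM in 3 libraries, which leaves Comp untested, and 1 with only the 2 groups compared (Comp, adjusted p = 0.0616 by edgeR). Signs turned for values that never passed. In Lin28a-induced over no-Cre, Sox9 turned to -0.12, -0.02 and -0.03 without the libraries named above, and Matn4 ran from -0.44 to 0.0842 and Comp from -0.10 to 0.31 with 1 library left out; Sox9 ran from -0.12 to 0.10. In no-Cre over wild type, Matn4 turned to 0.00279 without a filter and ran from -0.37 to 0.16 with 1 library left out, above 0 without no-Cre replicate 7 (0.09) or 8 (0.16) or wild-type replicate 3 (0.10). The cause was not tested. Of 327 member values under alternatives, 307 kept direction and side of the threshold. With a replicate block over the 2 shared numbers, 3 members and 8028 genes passed in Lin28a-induced over wild type; same-numbered libraries deviated with correlations of -0.03 and -0.08 across genes, so the numbers are not shown to pair samples. Acan and Matn1 did not pass without a filter. Few reads limit the values of Comp, Acan and Matn1.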
